A study of Mus musculus with 12 samples.

Results

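The 10 genes described here are the 4 Id genes (Id1, Id2, Id3 and Id4), the SMAD feedback genes Smad6, Smad7, Bambi, Pmepa1 and Skil, and the ligand gene Bmp4. They were taken by gene symbol from the deposited tables of 2 mouse mammary tumour lines, which list 56691 genes each, and all 10 were found once in both tables. Messenger RNA had been sequenced from cultured 4T1 knockout cells (labelled KO, 3 libraries), 4T1 control cells (labelled WT, 3 libraries), EMT6 knockout cells (3 libraries) and EMT6 control cells (3 libraries). The knockout label, sgNEDD4, names a guide RNA to Nedd4, which encodes a HECT-type E3 ubiquitin ligase. Cells of all 4 groups were kept in serum-supplemented DMEM, and the labels name no added BMP or TGF-beta. The labels do not say whether the 3 libraries of a group are separate cultures, whether the knockout cells are 1 clone, or where the guide cuts, so p-values measure only the spread between these libraries.

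Bone morphogenetic proteins (BMPs) and TGF-beta bind paired receptor kinases at the cell surface, which phosphorylate receptor SMADs that then enter the nucleus with SMAD4. The Id genes are among the most direct targets of the BMP branch, and their products are helix-loop-helix proteins without a DNA-binding region that hold E proteins away from DNA. Smad6, Smad7, Bambi, Pmepa1 and Skil are induced by the pathway and restrain it, at the receptor, at the receptor SMADs or in the nucleus. NEDD4-family ligases bind proline-tyrosine (PY) motifs, and both SMAD7 and PMEPA1 carry such motifs. Id1 and Id3 have been studied in mammary tumour cells, 4T1 among them, for their part in metastasis.

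Library totals lay between 13705612 and 19761604 counts, and 3 counts equal 0.152 to 0.219 CPM, a count scaled by its library's total. Nedd4 stood at 24.7, 24.9 and 25.3 FPKM (counts scaled by exonic length and library total) in the 4T1 KO libraries, against 94.4, 97.6 and 93.5 FPKM in 4T1 controls, and at 12.1, 11.5 and 12.1 FPKM in EMT6 KO, against 122.5, 121.4 and 116.5 FPKM in EMT6 controls, so the KO means were 26.3% and 9.89% of the control means. The 4T1 cells held the epithelial markers Cdh1 and Epcam (142.4 ± 3.92 and 72 ± 2.42 FPKM in KO; 136.0 ± 1.92 and 148.9 ± 5.16 FPKM in controls; SD, n = 3). In EMT6, Cdh1 had 0 to 1 counts per KO library and 0 to 2 per control library. Mean Epcam there was 0.397 FPKM in KO and 1.19 FPKM in controls, and mean Krt14 was 0.103 and 0.95 FPKM. Krt8 stood at 351.8 ± 8.59 FPKM in EMT6 KO and 293.3 ± 32.5 FPKM in controls. Krt18 stood at 32.5 ± 1.47 FPKM in KO and 76.2 ± 4.31 FPKM in controls. The mesenchymal markers Vim, Col1a1, Col1a2 and Pdgfrb had means of 838.6, 202.0, 323.0 and 9.78 FPKM in EMT6 KO. In EMT6 controls their means were 610.3, 164.7, 198.6 and 0.953 FPKM. Mean Vim was 570.8 FPKM in 4T1 KO and 496.3 FPKM in 4T1 controls. Defining leukocyte markers were at 0 in EMT6 (4 of 4), and in 4T1 Cd3e was at 0 while the 4 markers together reached 1.31 to 3.19 CPM in KO and 2.23 to 2.92 CPM in controls. The 4 endothelial markers together reached 1.65 to 3.07 CPM in 4T1 KO, 1.17 to 1.60 CPM in 4T1 controls, 0.101 to 0.206 CPM in EMT6 KO and 0.0521 to 0.140 CPM in EMT6 controls.

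KO was compared with control in each line by edgeR's quasi-likelihood test over all genes that passed a filter on low counts, and a gene is called where its Benjamini-Hochberg adjusted p is under 0.05. The test rescales libraries by TMM, while FPKM, and so overlap of libraries, percents and folds of means, uses library totals alone. Percents and log2 changes therefore need not match. Scaling by totals alone moved log2 changes over all genes tested by a median of 0.0796 in 4T1 and -0.0021 in EMT6. In 4T1, 8 of the 10 genes were tested. Of these, 2 were called higher in KO, Id2 and Id4, and 4 were called lower, Id1, Id3, Smad7 and Pmepa1. Of all 13313 genes tested in 4T1, 57.0% were called, 28.0% higher and 29.0% lower. In EMT6, 8 genes were tested, 4 were called higher (Id2, Smad6, Pmepa1 and Skil) and Id1 was called lower. There 56.0% of 12890 tested genes were called, 27.9% higher and 28.2% lower. The median log2 change over the tested genes of the set was -0.15 in 4T1 and 0.17 in EMT6, beside 0.000 and 0.001 over all genes tested. Both lines held members called in each direction. In bulk cells, fewer cells that express a gene and less RNA per cell cannot be told apart.

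**Figure D1:**
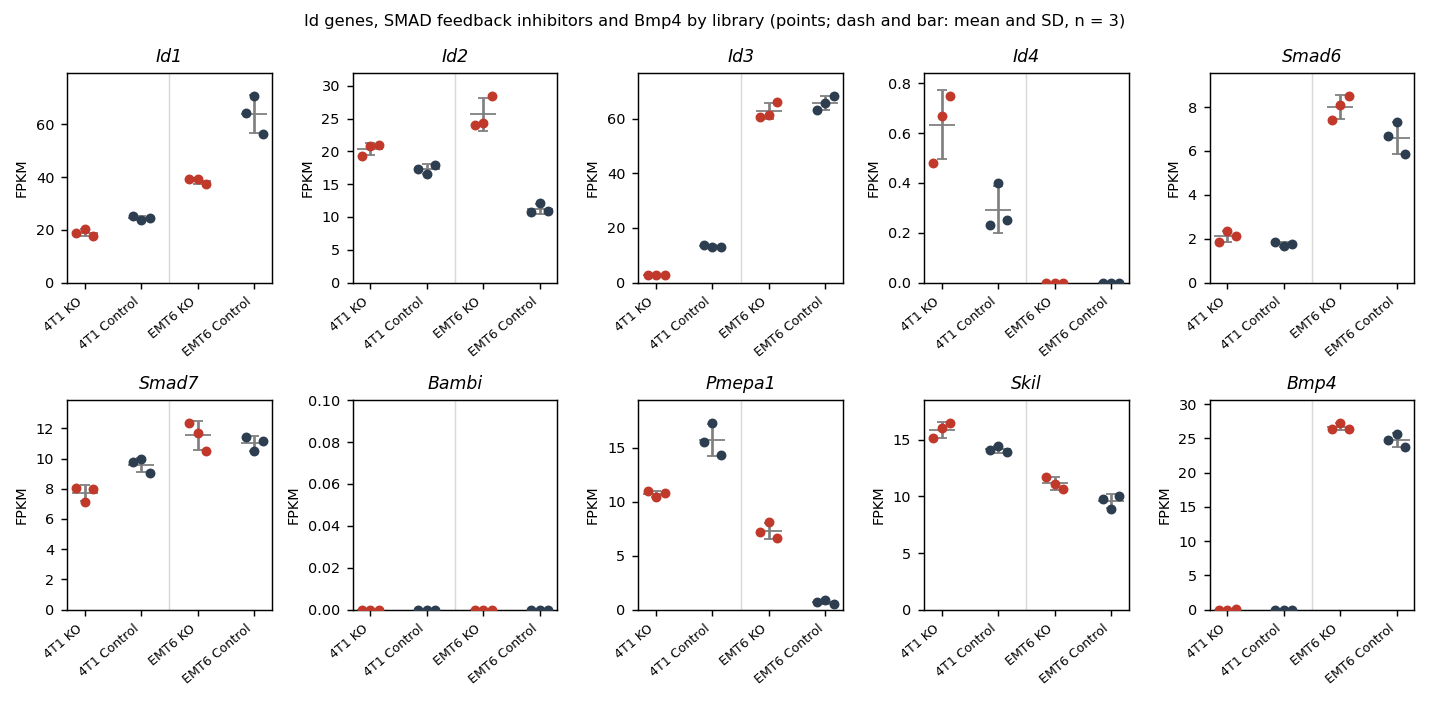
Level of each of the 10 genes in every library, in FPKM on a linear axis from 0, with 4T1 KO, 4T1 control, EMT6 KO and EMT6 control from left to right; points are libraries, and the dash and bar give mean and SD (n = 3). Id3 lies near 0 in 4T1 KO (2.85 FPKM) and Pmepa1 near 0 in EMT6 controls (0.717 FPKM), Id4 is seen in 4T1 alone, Bmp4 in EMT6, and Bambi in no library.

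The Id genes changed in different directions within each line. Id1 was the one member called lower in both lines, Id2 was called higher in both, Id3 fell in 4T1 and was not called in EMT6, and Id4 was detected in 4T1 libraries alone. The identifiers in the tables are ENSMUSG00000042745 (Id1, chromosome 2), ENSMUSG00000020644 (Id2, chromosome 12), ENSMUSG00000007872 (Id3, chromosome 4) and ENSMUSG00000021379 (Id4, chromosome 13). Upstream sequence for 3 of the 4 is shown because the genes share a pathway yet differ in response. The 250 bases before the RefSeq start are given 5′ to 3′, from chr4:136143572-136143821 (plus strand) for Id3, chr12:25096093-25096342 (minus strand) for Id2 and chr13:48260866-48261115 (plus strand) for Id4, in build GRCm38.p6. Capitals mark GGCGCC, a palindrome bound by BMP-type SMADs in GC-rich elements, and CAGAC, a SMAD-binding motif, on either strand (GTCTG is CAGAC on the other strand).
Id3: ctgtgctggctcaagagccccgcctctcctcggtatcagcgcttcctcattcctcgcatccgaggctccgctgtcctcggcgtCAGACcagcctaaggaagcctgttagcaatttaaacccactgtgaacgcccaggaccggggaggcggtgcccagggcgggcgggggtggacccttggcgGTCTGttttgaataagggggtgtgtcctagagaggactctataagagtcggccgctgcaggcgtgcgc
Id2: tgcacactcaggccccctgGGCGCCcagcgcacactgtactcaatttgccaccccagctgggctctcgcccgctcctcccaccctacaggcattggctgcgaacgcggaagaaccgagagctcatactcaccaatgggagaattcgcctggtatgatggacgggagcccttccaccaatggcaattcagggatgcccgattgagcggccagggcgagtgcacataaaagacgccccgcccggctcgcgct
Id4: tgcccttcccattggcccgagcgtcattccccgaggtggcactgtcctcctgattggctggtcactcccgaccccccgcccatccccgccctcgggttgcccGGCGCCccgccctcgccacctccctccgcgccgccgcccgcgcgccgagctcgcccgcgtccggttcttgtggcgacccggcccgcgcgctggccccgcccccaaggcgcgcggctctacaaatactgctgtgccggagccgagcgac
GGCGCC lies once in the Id2 window, 231 bases before the start, and once in the Id4 window, 148 bases before it, and it is found in 9.59% of 32851 RefSeq promoters cut to the same window. CAGAC lies in the Id3 window at 167 and 68 bases before the start and in 42.2% of promoters. The longer palindrome GTCTAGAC, present in 0.167% of promoters, has no match in any of the 3 windows, and the motifs searched do not overlap one another. The windows are 62.8% (Id3), 62.8% (Id2) and 75.6% (Id4) G and C, against a median of 52.4% over all promoters. RefSeq windows were matched for 5 of the 10 genes, with Smad6 and Bmp4 as the others, and neither of those windows holds any of the 3 motifs. A match is a description of the letters and does not show binding. A window without a match says nothing of sites outside the 250 bases, which were not searched. No window was matched for Id1, and a link between motifs and the changes in KO was not tested.

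Id3, whose product dimerises with E proteins such as TCF3, fell most in 4T1. It stood at 2.84, 2.96 and 2.76 FPKM in the KO libraries, against 13.7, 13.2 and 13.0 FPKM in the controls, from 86 to 87 counts per KO library and 319 to 397 per control library. All KO libraries lay far below all controls, and the KO mean was 21.4% of the control mean. Its log2 change was -2.30 ± 0.11 (edgeR, ± SE here and below, adjusted p = 1.86e-14). In EMT6 Id3 stood at 60.6, 61.5 and 66.1 FPKM in KO and 63.0, 65.6 and 68.4 FPKM in controls, and the groups overlapped. There the log2 change was -0.07 ± 0.06 (adjusted p = 0.362). The KO effect differed between the lines by 2.21 ± 0.10 on the log2 scale (EMT6 minus 4T1, tested as the line-by-knockout interaction over 12 libraries, adjusted p = 4.21e-14).

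Id1, the family member best known as a BMP response gene, fell in both lines. In 4T1 it stood at 18.9, 20.4 and 17.5 FPKM in KO, against 25.1, 23.7 and 24.5 FPKM in controls, a log2 change of -0.45 ± 0.08 (adjusted p = 5.64e-05). In EMT6 it stood at 39.2, 39.4 and 37.3 FPKM in KO, against 64.3, 70.9 and 56.3 FPKM in controls, a log2 change of -0.72 ± 0.08 (adjusted p = 1.70e-06). KO and control libraries did not overlap in either line, and the KO mean was 77.5% of the control mean in 4T1 and 60.5% in EMT6. The difference between the lines was small, -0.29 ± 0.12 (adjusted p = 0.0324). That last call was lost with limma-voom (adjusted p = 0.0573), with no low-count filter (adjusted p = 0.0678) and on leaving out any 1 of 7 libraries (4T1 control replicates 2 and 3, 4T1 KO replicates 1 and 2, EMT6 control replicates 1 and 2, EMT6 KO replicate 3), with adjusted p over all alternatives from 0.00262 to 0.125.

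Id2, known for its roles in lymphoid and mammary epithelial development, was higher in KO. In EMT6 it stood at 24.0, 24.4 and 28.5 FPKM in KO, against 10.8, 12.1 and 10.9 FPKM in controls, 2.28 times the control mean. Every EMT6 KO library was above every control, and the log2 change was 1.18 ± 0.08 (adjusted p = 6.00e-09). In 4T1 it stood at 19.3, 20.8 and 20.98 FPKM in KO, against 17.4, 16.5 and 17.99 FPKM in controls. The 4T1 libraries were apart as well, but the log2 change was 0.16 ± 0.06 (adjusted p = 0.0306), and the call was lost with DESeq2 (adjusted p = 0.0648), with no low-count filter (adjusted p = 0.158) and without any 1 of 4 libraries (control replicates 1 and 2, KO replicates 2 and 3, adjusted p from 0.0703 to 0.108). The Id2 effect differed between the lines by 1.01 ± 0.10 (adjusted p = 1.86e-08).

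Id4 was the lowest of the Id genes. In 4T1 it had 31, 42 and 51 counts in the KO libraries (0.48, 0.67 and 0.75 FPKM), against 14, 23 and 13 counts in the controls (0.23, 0.40 and 0.25 FPKM). The groups did not overlap, and the log2 change was 1.04 ± 0.30 (adjusted p = 0.00477). On log2(FPKM + 0.5) it was 0.51. In EMT6 Id4 had 0 counts in all 6 libraries, which allows a level of up to 0.0394 to 0.0545 FPKM per library (3 counts, counting error only). GENCODE M21, an annotation of GRCm38, has 2 opposite-strand noncoding genes overlapping Id4, and both had 0 counts in all libraries.

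The 4 Id genes together had a lower summed level in KO than in controls, and their proportions differed between KO and control in both lines. Their summed level was 42.8 ± 1.78 FPKM in 4T1 KO and 55.3 ± 1.35 FPKM in 4T1 controls (SD, n = 3), and 126.9 ± 4.27 FPKM in EMT6 KO and 140.7 ± 6.92 FPKM in EMT6 controls. No KO library reached the lowest control in either line. Id3 made up 6.57% to 6.84% of the sum in 4T1 KO and 23.3% to 24.5% in 4T1 controls, while Id2 made up 46.4% to 49.9% in 4T1 KO and 30.7% to 32.3% in 4T1 controls. The Id1 share was 41.7% to 45.5% in 4T1 KO and 43.9% to 44.5% in 4T1 controls, so it overlapped. In EMT6, Id1 made up 28.3% to 31.7% of the sum in KO and 41.5% to 47.7% in controls, and Id2 made up 19.4% to 21.6% in KO and 7.79% to 8.15% in controls. The Id3 share overlapped there, at 48.9% to 50.1% in KO and 44.2% to 50.4% in controls. These sums weigh transcripts per kilobase, were not tested, and say nothing of protein.

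**Figure D2:**
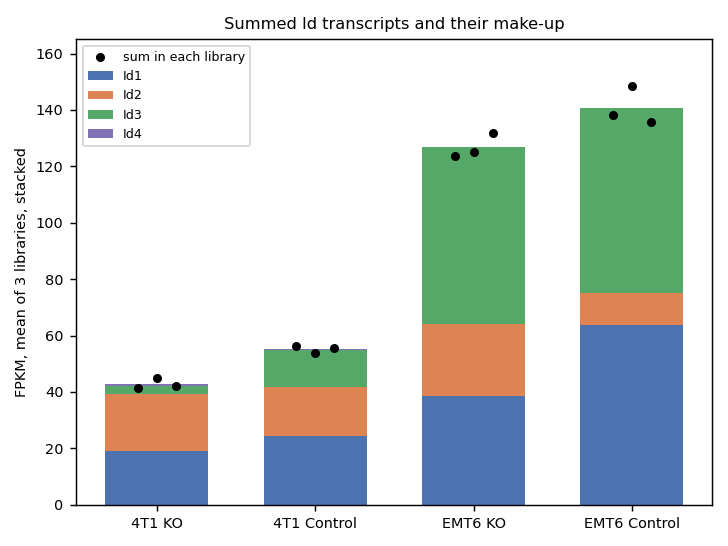
Mean FPKM of Id1, Id2, Id3 and Id4 stacked for 4T1 KO, 4T1 control, EMT6 KO and EMT6 control, with the summed level of each library as a black point (n = 3). The green Id3 layer is thin in 4T1 KO, at 2.85 FPKM against 13.3 FPKM in 4T1 controls, and the orange Id2 layer is wider in EMT6 KO, at 25.6 FPKM against 11.3 FPKM in EMT6 controls.

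Pmepa1 (ENSMUSG00000038400, chromosome 2) went in opposite directions in the lines. It encodes a membrane protein with PY motifs that sequesters receptor SMADs from the TGF-beta receptor, and it had the largest log2 change of the members tested. In EMT6 it stood at 7.19, 8.08 and 6.61 FPKM in KO, against 0.71, 0.90 and 0.54 FPKM in controls, from 511 to 784 counts per KO library and 50 to 81 per control library. This is a 10.2-fold difference of means, with a log2 change of 3.35 ± 0.15 (adjusted p = 5.26e-11). In 4T1 it stood at 10.98, 10.4 and 10.8 FPKM in KO, against 15.5, 17.3 and 14.3 FPKM in controls, and the log2 change was -0.63 ± 0.07 (adjusted p = 2.79e-08). The groups were apart in each line, above the controls in EMT6 and below them in 4T1. The difference of the effects was 3.96 ± 0.17 (adjusted p = 1.74e-13). Even so, the EMT6 KO libraries stayed below every 4T1 library of either group, in levels scaled separately in each table by the same formula and not tested across lines.

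The inhibitory SMADs moved little. Smad7, which recruits ubiquitin ligases to activated type I receptors, stood at 8.05, 7.11 and 8.01 FPKM in 4T1 KO, against 9.74, 9.96 and 9.02 FPKM in 4T1 controls. Every 4T1 KO library was below every control, and the log2 change was -0.39 ± 0.07 (adjusted p = 4.81e-05). In EMT6 it stood at 12.4, 11.7 and 10.5 FPKM in KO and 11.5, 10.5 and 11.1 FPKM in controls, with overlap and a log2 change of 0.07 ± 0.07 (adjusted p = 0.440). The Smad7 effect differed between the lines by 0.44 ± 0.11 (adjusted p = 0.00101). Smad6, which acts mainly on the BMP branch, ran from 7.41 to 8.52 FPKM in EMT6 KO and from 5.85 to 7.30 FPKM in EMT6 controls, with no overlap and a log2 change of 0.28 ± 0.10 (adjusted p = 0.0247). The EMT6 call of Smad6 was lost without any 1 of 4 libraries (control replicates 1 and 3, KO replicates 2 and 3), with adjusted p from 0.0511 to 0.109. In 4T1 Smad6 ran from 1.84 to 2.36 FPKM in KO and 1.65 to 1.87 FPKM in controls, and was not called (0.18 ± 0.15, adjusted p = 0.311). The Smad6 difference between the lines was 0.08 ± 0.17 (adjusted p = 0.719), which does not show that the lines respond alike.

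Skil encodes SnoN, a nuclear corepressor of SMAD complexes. It stood at 11.8, 11.1 and 10.7 FPKM in EMT6 KO, against 9.81, 8.87 and 10.1 FPKM in EMT6 controls, and was called higher there (0.22 ± 0.06, adjusted p = 0.00619), a call lost without KO replicate 1 (adjusted p = 0.0550). In 4T1 it stood at 15.1, 16.1 and 16.5 FPKM in KO, against 14.1, 14.5 and 13.9 FPKM in controls. The 4T1 libraries were apart in FPKM, which is scaled by library totals. The log2 change from the test, which scales libraries otherwise, was 0.09 ± 0.05 and was not called (edgeR, adjusted p = 0.113). It was called with scaling by total counts only (0.17, adjusted p = 0.00325), on log2 FPKM (0.16, adjusted p = 0.0219), with the filter set to a mean of 1 FPKM or more (0.12, adjusted p = 0.0396) and without control replicate 2 (0.12, adjusted p = 0.0457). The difference between the lines was 0.11 ± 0.08 (adjusted p = 0.222).

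Bmp4, the one ligand of the set, was present in EMT6 at 26.5, 27.3 and 26.5 FPKM in KO, against 24.8, 25.7 and 23.8 FPKM in controls. The libraries did not overlap, but the change was small and not called (0.11 ± 0.06, adjusted p = 0.156). In 4T1 a single Bmp4 count was found, in KO replicate 3, and the other libraries were at 0, which allows up to 0.0788 to 0.0974 FPKM per library. GENCODE M21 has 2 opposite-strand genes overlapping Bmp4, with at most 6 and 16 counts in an EMT6 library beside 799 to 1213 counts for Bmp4. Bambi, a pseudoreceptor that blocks TGF-beta family signalling, had 0 counts in all 12 libraries, which allows up to 0.0336 to 0.0431 FPKM per library in 4T1 and 0.0299 to 0.0413 FPKM in EMT6.

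**Figure D3:**
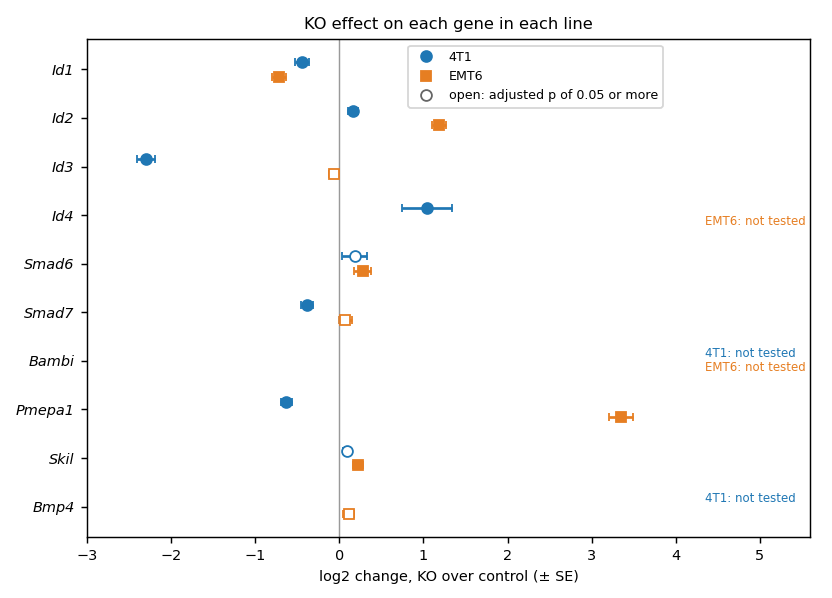
Log2 change of KO over control with its SE for each gene in 4T1 (circles) and EMT6 (squares), from edgeR; open symbols have an adjusted p of 0.05 or more. Pmepa1 lies at -0.63 in 4T1 and 3.35 in EMT6, Id3 at -2.30 and -0.07, and Id1 is below 0 in both lines.

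Of the 7 members tested in both lines, the KO effect differed for 5 (Id1, Id2, Id3, Smad7 and Pmepa1), 4 of them with a positive difference (EMT6 minus 4T1) and Id1 with a negative one. In the same fit the difference was called for 59.9% of 12006 genes, 29.7% positive and 30.2% negative. Ordered by level, Id1, Id3, Smad6, Smad7 and Bmp4 were higher in both EMT6 groups than in both 4T1 groups, and Skil, Pmepa1 and Id4 were higher in both 4T1 groups. Neighbouring groups in that order whose libraries overlapped were EMT6 KO and EMT6 control for Id3 and Smad7, 4T1 KO and 4T1 control for Smad6, and, at or near 0 counts, EMT6 KO and EMT6 control for Id4 and 4T1 KO and 4T1 control for Bmp4. For Id2 the order was EMT6 KO, 4T1 KO, 4T1 control and EMT6 control, with no overlap between neighbours.

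Genes with the most similar pattern were sought for members whose log2(FPKM + 1), centred within each line, had an SD of at least 0.5 over the 12 libraries, which were Id3 (0.701) and Pmepa1 (0.866). Likeness was the root mean square difference of that centred value over the 12 libraries, among 12006 genes tested in both lines. The added 1 FPKM shrinks differences of genes with low levels, so genes near by this measure can have unlike log2 changes. Nearest to Id3 were Itga2, an integrin subunit that binds collagen, at a difference of 0.149, then Miga1 at 0.176 and Gm31342 at 0.199. Their log2 changes were -1.69 for Itga2, -4.45 for Miga1 and -2.38 for Gm31342 in 4T1, and -0.83, -0.65 and 0.09 in EMT6. Nearest to Pmepa1 were Angptl2, a secreted angiopoietin-like protein, at 0.185, Masp1, a protease of the lectin complement pathway, at 0.210, and Gm13230 at 0.219. Their log2 changes were -0.72 for Angptl2, -0.36 for Masp1 and -0.16 for Gm13230 in 4T1, and 1.92, 3.12 and 2.75 in EMT6.

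Genes of the related lists are named only where they were called in the line stated (edgeR, adjusted p under 0.05). Beside the counts for each list, 28.0% of all tested genes were called higher and 29.0% lower in 4T1. In EMT6 these shares were 27.9% and 28.2%. Of 10 further BMP ligands, 2 were tested in EMT6 and both were called lower, Bmp8a (-1.88 ± 0.25) and Bmp6 (-1.06 ± 0.36). Bmp8a had 15 to 30 counts per KO library and 54 to 92 per control library. Bmp6 had 7 to 16 counts per KO library and 19 to 32 per control library. In 4T1 the ligand tested was Bmp7, at 14.3 ± 0.257 FPKM in KO and 16.1 ± 0.757 FPKM in controls, called lower (-0.25 ± 0.06). Of 11 BMP and TGF-beta receptors, 9 were tested in EMT6, with 2 called higher and 4 called lower (median 0.01). Tgfbr3 (betaglycan, a co-receptor) fell to 11.3 ± 0.240 FPKM in EMT6 KO, against 23.8 ± 1.74 FPKM in EMT6 controls (-1.07 ± 0.06), and the signalling receptor Tgfbr2 fell by 0.72 ± 0.06. The activin receptor Acvr2b stood at -0.98 ± 0.23 and the BMP receptor Bmpr1a at -0.23 ± 0.05. Acvr2b had 29 to 35 counts per EMT6 KO library and 44 to 73 per control library. In 4T1, 3 of 9 receptors were called higher and 1 lower (median 0.08). There Tgfbr3 rose to 3.67 ± 0.284 FPKM in KO, against 1.77 ± 0.0850 FPKM in controls (0.97 ± 0.10), Tgfbr2 rose by 0.15 ± 0.04 and Acvr2a by 0.19 ± 0.07, while Bmpr1a fell by 0.23 ± 0.05.

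Among the SMADs that carry the signal, calls were too few in 4T1 to read a direction, beside 29.0% of all tested genes called lower there. Calls went both ways in EMT6. In 4T1, 0 of 5 tested were called higher and 2 lower (median -0.05), Smad2 of the TGF-beta branch at -0.38 ± 0.05 and Smad5 of the BMP branch at -0.22 ± 0.05. Among the 6 in EMT6, 2 rose and 3 fell (median -0.14). Smad5 rose by 0.54 ± 0.06, whereas Smad1, which also serves the BMP branch, stood at -0.46 ± 0.07, Smad3 at -0.30 ± 0.06 and the shared partner Smad4 at -0.26 ± 0.06. Secreted BMP antagonists and binding proteins were split as well, with 1 of 4 called higher and 2 lower in 4T1 (median 0.03) and 2 of 6 higher and 3 lower in EMT6 (median 0.16). Crim1, a membrane protein that binds BMPs, rose by 0.64 ± 0.05 in 4T1, where Twsg1 stood at -0.33 ± 0.05 and Nbl1 (DAN) at -0.21 ± 0.08. In EMT6 Nbl1 rose to 16.7 ± 0.376 FPKM in KO, against 7.19 ± 0.271 FPKM in controls (1.22 ± 0.08), and Twsg1 rose by 0.48 ± 0.06. Follistatin (Fst), which binds activin, stood at -0.72 ± 0.08 and chordin (Chrd) at -1.93 ± 0.27, from 15 to 24 counts per EMT6 KO library and 56 to 95 per control library.

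Corepressors and regulators of SMAD turnover had 2 of 13 called higher and 6 lower in 4T1 (median -0.13), and 5 of 13 higher and 4 lower in EMT6 (median 0.02). Ski, the relative of Skil, was called higher in both lines, by 0.27 ± 0.05 in 4T1 and 0.61 ± 0.07 in EMT6. In 4T1 the deubiquitinase Usp15 stood at -0.48 ± 0.05, the corepressor Tgif1 at -0.27 ± 0.05 and the ligase Nedd4l at 0.46 ± 0.07. In EMT6 the ligases Wwp2 and Itch stood at 0.44 ± 0.05 and 0.42 ± 0.06, and Rnf111 (Arkadia), which degrades SnoN and SMAD7, at -0.50 ± 0.08. Of the 3 E-protein genes whose products ID proteins bind, Tcf3 and Tcf4 were called lower in 4T1 (-0.41 ± 0.04 and -0.47 ± 0.06). In EMT6 Tcf3 was called higher (0.35 ± 0.07) and Tcf12 lower (-0.33 ± 0.06).

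Other genes known to respond to the pathway were called in both directions, except that the tested BMP targets all fell in EMT6. Of 4 tested further BMP targets in EMT6, all 4 were called lower (median -0.84), with Gata2 at -0.93 ± 0.10, Atoh8 at -0.75 ± 0.13, Gata3 at -2.00 ± 0.45 and Runx2 at -0.29 ± 0.06, and Gata3 had 4 to 6 counts per KO library and 15 to 31 per control library. In 4T1, 2 of 4 were called higher and 1 lower (median 0.32). Runx2 stood at 0.26 ± 0.06, Gata3 at -0.46 ± 0.05, and Hey1 at 1.89 ± 0.49 with 14 to 30 counts per KO library and 2 to 7 per control library. Among 6 further TGF-beta targets tested in EMT6, 4 rose and 2 fell (median 0.66). Smooth-muscle actin Acta2 rose by 4.23 ± 0.10 and Ccn2 by 0.97 ± 0.08, and Ltbp2 and the cell-cycle inhibitor Cdkn1a stood at -2.89 ± 0.13 and -0.94 ± 0.06. In 4T1, 1 of 5 was called higher and 2 lower (median -0.02), with Ltbp2 at -0.38 ± 0.06 and Cdkn1a at -1.61 ± 0.06.

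**Figure D4:**
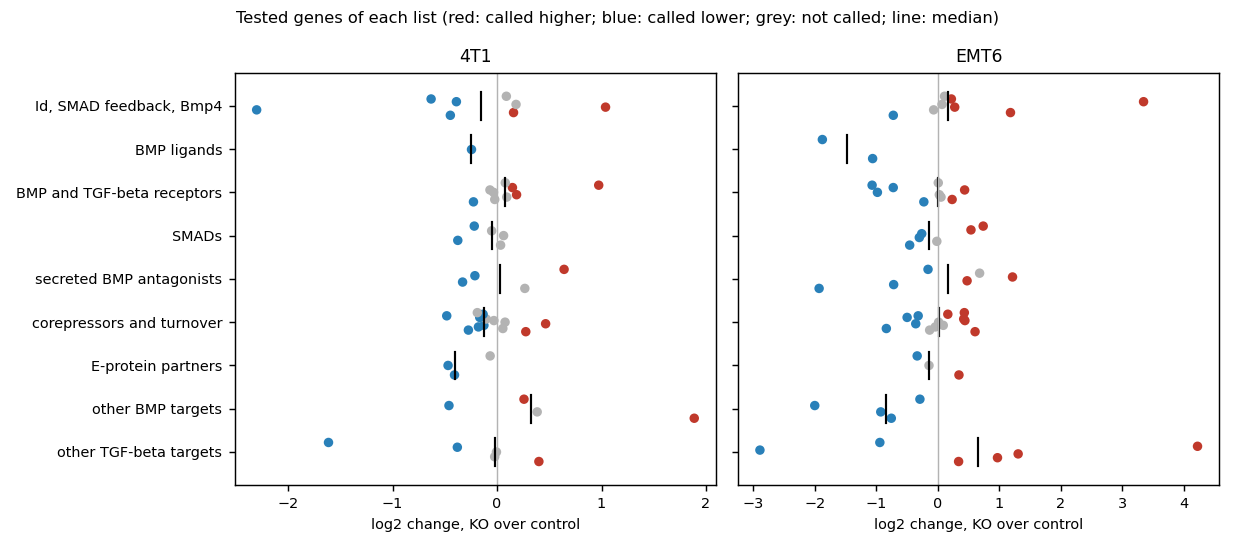
Log2 change of KO over control of every tested gene in the set (top row) and in 8 lists of related genes, in 4T1 (left) and EMT6 (right), with the median of each list as a black line. Red and blue points were called higher and lower, and grey points were not called. Most lists hold genes of both colours. Of all tested genes, 28.0% were called higher and 29.0% lower in 4T1, and 27.9% and 28.2% in EMT6.

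Several measures differed between KO and control. In EMT6 the epithelial sum, the genes with at least 1 count and Malat1 overlapped between KO and control libraries. Beside the calls of markers, 28.0% of all tested genes were called higher and 29.0% lower in 4T1. In EMT6 those shares were 27.9% and 28.2%. The 5 epithelial markers summed to 2.59e+03 to 2.71e+03 CPM in 4T1 KO and 3.52e+03 to 3.64e+03 CPM in 4T1 controls, and 0 of 5 rose while 3 fell. In EMT6 they summed to 722 to 751 CPM in KO and 643 to 769 CPM in controls, and of the 4 tested Krt8 rose (0.26 ± 0.07) while Krt18 (-1.23 ± 0.07), Epcam (-1.59 ± 0.32) and Krt14 (-3.15 ± 0.50, 1 to 5 counts per KO library and 20 to 42 per control library) fell. In EMT6 all 4 mesenchymal markers rose, and they summed to 9.02e+03 to 1e+04 CPM in KO and 6.15e+03 to 6.64e+03 CPM in controls. Of the 4 mesenchymal markers, 2 were tested in 4T1. There Vim rose (0.12 ± 0.04) and Col1a1 was not called (0.81 ± 0.36). The mesenchymal markers summed to 2640 to 2790 CPM in 4T1 KO and 2280 to 2490 CPM in 4T1 controls. The 3 mesothelium and muscle markers summed to 1.77 to 2.04 CPM in 4T1 KO and 0.73 to 0.743 CPM in 4T1 controls. Genes with at least 1 count numbered 20937 to 21264 in 4T1 KO and 18836 to 19017 in 4T1 controls, and 18119 to 18371 in EMT6 KO and 18014 to 18833 in EMT6 controls. The nuclear RNA Malat1 stood at 479 to 560 CPM in 4T1 KO and 69.3 to 155 CPM in 4T1 controls. In EMT6 it stood at 158 to 200 CPM in KO and 189 to 450 CPM in controls. Neat1, another nuclear RNA, stood at 241 to 333 CPM in 4T1 KO and 51.6 to 84.6 CPM in 4T1 controls, but at 28.2 to 36.1 CPM in EMT6 KO and 66.8 to 138 CPM in EMT6 controls. The desmin gene Des, a muscle marker, had 23 to 26 counts per 4T1 KO library and 8 to 10 per 4T1 control library. The part of these measures in the results above was not tested.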

How the data were processed

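Gene tables of 12 mRNA libraries from 2 lines were analysed. The tools cutadapt (1.9.1), HISAT2 (2.2.1), HTSeq (0.6.1) and DESeq2, and the build GRCm38, are named in the submitters' processing notes as the authors' tools. Their order, any use of strand in counting and the handling of shared reads are not known here. The deposited tables hold raw counts and the authors' FPKM, and all 340146 FPKM values of each line lay within 0.005 of those computed here from counts, totals and exonic size. Start and end of 1 of the 10 genes equalled those in GENCODE M21, so the tables' coordinates are not printed. Promoter coordinates are RefSeq's in GRCm38.p6.

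Counts were fitted in R 4.3.3 with edgeR 4.0.16 (filterByExpr, TMM, robust quasi-likelihood) within each line, and over 12 libraries for the interaction of line and knockout, with Benjamini-Hochberg adjustment over all tested genes. Tests were 2-sided, and the SE is the log2 change over the root of the quasi-F statistic. The fits were checked on simulated data. Alternatives were DESeq2 1.42.0, limma 3.58.1 (voom, and log2 of FPKM + 0.5), other scalings and filters, a replicate block and each library left out. Libraries of a group differed by more than counting noise (chi-square per degree of freedom 2.45 to 11.8).

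The 10 genes and all lists were chosen with earlier results of these data known. From each list of related genes, up to 4 called genes with the lowest adjusted p in a line are named, and 1 of them is not reported here.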

Additional observations from a re-analysis of the deposited data

Results flagged for a closer look

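The KO effect differed between EMT6 and 4T1, by the interaction in a fit of all 12 libraries (edgeR, adjusted p under 0.05), for 5 members and for Nedd4 itself. On the log2 scale, EMT6 minus 4T1, the difference was 3.96 for Pmepa1, 2.21 for Id3, 1.01 for Id2, 0.44 for Smad7, -0.29 for Id1 and -1.35 for Nedd4. In the same fit the effect differed for 59.9% of all tested genes.

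Among the related genes named, the difference was also called for receptors and SMADs. It was -2.06 for Tgfbr3, -0.89 for Tgfbr2 and -0.97 for Acvr2b, and 0.74 for Smad5, 0.34 for Smad2, -0.51 for Smad1, -0.38 for Smad3 and -0.23 for Smad4. For BMP-binding proteins it was 1.41 for Nbl1, 0.79 for Twsg1, -0.82 for Crim1 and -1.003 for Fst. For corepressors and ligases it was 0.31 for Ski, 0.51 for Itch, 0.45 for Wwp2, -0.84 for Nedd4l and -0.35 for Rnf111. For E-protein genes it was 0.73 for Tcf3, 0.31 for Tcf4 and -0.29 for Tcf12. For other targets it was -1.57 for Gata3, -1.33 for Gata2, -0.57 for Runx2, 0.98 for Ccn2, 0.65 for Cdkn1a and -2.53 for Ltbp2. Gata2 had few counts in 4T1, 9 to 15 per KO library and 2 to 12 per control library. Of these genes, Tgfbr2, Tgfbr3, Smad5, Nbl1, Twsg1, Crim1, Nedd4l, Tcf3 and Runx2 were called in opposite directions in the lines.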

How the results depend on the processing

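Over all alternatives, the number of members called ran from 5 to 7 in 4T1, from 4 to 5 in EMT6, and from 4 to 5 for the line difference, beside 6, 5 and 5 as reported. The share called over all genes also moved. With no low-count filter it was 7832 of 26210 genes in 4T1, beside 7589 of 13313 as reported. In EMT6 it was 7350 of 23721, beside 7224 of 12890. Of 363 recomputed log2 values of single members, 339 stayed on the same side of the threshold, 20 lost the call and 4 gained it. Direction reversed for 0 values where the reported or the recomputed value was called. The Smad6 line difference, called in no fit, ran from -0.008 to 0.171. The lost calls were Id2 in 4T1 (6), Smad6 (4) and Skil (1) in EMT6 and the line difference of Id1 (9), the gained ones Skil in 4T1 (4); the cause was not tested. Id4 had no value when the filter was a mean of 1 FPKM or more. With the replicate number as a block, 6, 5 and 5 members were called and no call of a member changed. Same-numbered libraries did not deviate together (correlations -0.023, -0.010 and 0.009 in 4T1 and -0.130, -0.007 and -0.111 in EMT6), so the numbers were not taken as pairs. Of the called genes of 4T1, 49.1% had a higher level in KO as reported, 61.2% when scaled by totals alone and 60.9% on log2 FPKM. Among the members tested, low counts limit Id4 in 4T1.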
